A study of Homo sapiens with 36 samples.

Results

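CTCF binding was compared between HEK293T cells, a human embryonic kidney line, transfected with small interfering RNA against CHD4 (siCHD4) and the same cells transfected with small interfering RNA against CHD5 (siCHD5). In each condition, 3 chromatin immunoprecipitates with an antibody to CTCF and 3 inputs were sequenced from both ends, and the authors called 1 peak list over the 3 replicates together. On chromosomes 1 to 22 and X the siCHD4 list held 25358 peaks and the siCHD5 list 31451, of 179333 peaks in the 6 lists of the series. The other lists, used here for membership only, came from siCHD3, siMBD2, siMBD3 and the control transfection siNC, and all of them came from the same cell line. Lines that shared chromosome, start and end were counted once. A peak was called shared when at least 1 bp overlapped a peak of the other knockdown, and siCHD4-only or siCHD5-only otherwise, whether or not siNC had it. How far CHD4 and CHD5 were depleted was not analysed here.

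CTCF binds DNA through an array of zinc fingers, marks insulators and loop anchors, and halts the cohesin ring as it extrudes chromatin loops when its site faces the right way. CHD4 and CHD5 are ATP-dependent chromatin helicases that can each serve as the motor subunit of NuRD, the nucleosome remodelling and deacetylase complex. CHD4 is the broadly expressed motor subunit, whereas CHD5 is known mainly from the nervous system and testis. CHD3 is the remaining motor subunit. MBD2, which binds methylated CpG, and its relative MBD3 are further NuRD subunits that exclude each other.

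Each condition had 1 pooled list, so no value below has a spread between replicates and no test between conditions was made. Intervals are exact Clopper-Pearson 95% intervals and cover counting error only. Fold enrichment, p and q are the authors' values for each peak at its summit. From the fold and p, the summit pileup (fragments over the summit) and the local background (fragments expected there from the control) were solved for every peak. The smallest local background of a list is its genome-wide floor and serves as the measure of depth. It was 1.06 fragments in siCHD4 and 1.95 in siCHD5, so the siCHD5 list was 1.84 times deeper by this measure. Peaks were narrow in both lists, with a median width of 252 bp in siCHD4 and 300 bp in siCHD5. Positions are hg19 and 1-based.

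The 2 knockdowns shared most of their CTCF peaks, and each list also held many that the other lacked. Of the 25358 siCHD4 peaks, 18764 (74.0%) overlapped a siCHD5 peak and 6594 did not (26%, interval 25.5 to 26.5). Of the 31451 siCHD5 peaks, 18810 (59.8%) overlapped a siCHD4 peak and 12641 did not (40.2%, interval 39.7 to 40.7). Joining overlapping peaks gave 37978 regions, of which 18743 (49.4%) were called in both lists, 6594 (17.4%) in siCHD4 and not siCHD5, and 12641 (33.3%) in siCHD5 and not siCHD4. The shorter list was therefore not a subset of the longer one. Holding each list to peaks with a −log10 q of 10 or more gave 15.4% in siCHD4 and 58.6% in siCHD5. That limit left 12437 siCHD4 peaks and 25409 siCHD5 peaks, so many siCHD5 peaks could not have a partner. With the limit on the counted list alone the shares were 10.5% and 32.6%. When siCHD5 summits were thinned to the siCHD4 coverage, 4.20% of siCHD5 peaks were expected to miss the weakest p of the siCHD4 list. This expectation holds no variation between libraries, and it keeps the siCHD5 ratio of pileup to background. The kept ratio and the lenient p both lower the expected share, so it cannot be set against the observed 40.2%. Among peaks that paired one to one, the fold was lower in siCHD4 in 80.3%, with medians of 5.10 in siCHD4 and 7.17 in siCHD5. The part of depth in the difference between the lists was therefore not tested.

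Peaks without a partner were rarely shifted copies of a peak in the other list. The median gap to the nearest siCHD5 peak was 18.8 kb for siCHD4-only peaks, and 337 of them (5.11%) lay within 1 kb of one. For siCHD5-only peaks the median gap to the nearest siCHD4 peak was 32.1 kb, and 303 (2.40%) lay within 1 kb. Where the lists did overlap, 18660 peaks paired one to one, and the summits of a pair were a median of 9 bp apart, with 98.2% of them within 100 bp.

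The strength of the peaks without a partner differed between the lists. In siCHD5, the share without a siCHD4 partner was highest in weak peaks and decreased with every step in fold, with 62.7% in the weakest decile (interval 60.9 to 64.3), 41.4% in decile 5 and 16.8% in the strongest (interval 15.5 to 18.2). In siCHD4 the share was U-shaped. It was 41.8% in the weakest decile (interval 39.8 to 43.7), between 16.5% and 24.8% from decile 4 to decile 9, and 34% in the strongest (interval 32.2 to 35.9). In the strongest decile of each list, 863 of 2535 siCHD4 peaks had no siCHD5 peak and 529 of 3145 siCHD5 peaks had no siCHD4 peak. These deciles began at unlike folds, 8.01 in siCHD4 and 10.4 in siCHD5. The 863 had a median pileup of 25 fragments and a median local background of 1.48. The 1672 shared siCHD4 peaks of that decile had medians of 47 and 2.82. Of siCHD4 peaks with a fold of at least 10, 29.4% had no siCHD5 peak, and of those with at least 20, 1.75%. Of siCHD5 peaks, 17.6% and 6.82% had no siCHD4 peak at the same limits, the latter of only 44 peaks. At a −log10 q of 10 or more in siCHD4 the siCHD4-only share was 10.5%.

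**Figure D1:**
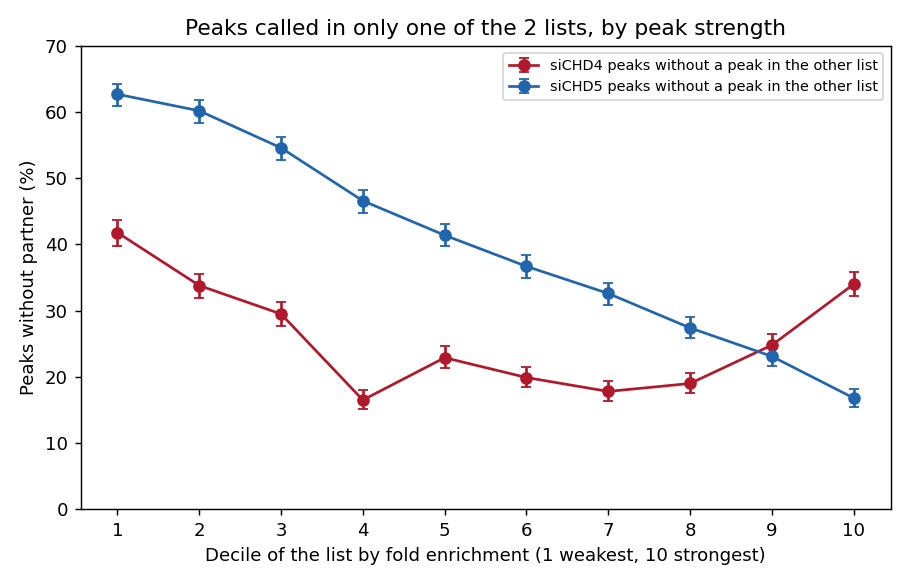
Share of siCHD4 peaks without a siCHD5 peak (red) and of siCHD5 peaks without a siCHD4 peak (blue), in percent, by decile of each list ordered by fold enrichment; bars are exact 95% intervals for counting error. The siCHD4 curve turns up again to 34% in its strongest decile, whereas the siCHD5 curve reaches its lowest value there, 16.8%.

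Local background separated the siCHD4-only peaks from the shared ones far more than fold did. The median local background was 1.42 fragments at siCHD4-only peaks, which is 1.34 times the floor of that list, and 5.11 fragments at shared siCHD4 peaks, 4.82 times the floor. The median fold was nearly alike, 4.85 and 5.11. The summit pileup differed in the same direction as the background, with medians of 12 fragments at siCHD4-only peaks and 31 at shared peaks. In siCHD5 the contrast was smaller, with a median background of 4.62 fragments at siCHD5-only peaks (2.37 times the floor) and 7.11 at shared peaks (3.64 times), and a median pileup of 31 and 59. Most siCHD4-only peaks were thus sites of few fragments in the immunoprecipitate and of a control signal close to the genome-wide level.

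Split into quintiles by local background, 80.3% of the siCHD4 peaks of lowest background had no siCHD5 partner (interval 79.2 to 81.4), followed by 40.0%, 6.69%, 1.68% and 1.34% in the quintiles of rising background. The corresponding shares of siCHD5 peaks without a siCHD4 partner were 63.9% (interval 62.7 to 65.1), 50.7%, 40.0%, 28.7% and 17.6%. Among siCHD4 peaks whose background was at least 2 times the floor, 1403 of 18347 (7.65%) had no siCHD5 peak, and the same limit left 7700 of 23514 siCHD5 peaks (32.7%) without a siCHD4 peak. Background enters the authors' fold and p, so it also bears on which sites were called, and its part in the difference between the lists was not tested.

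**Figure D2:**
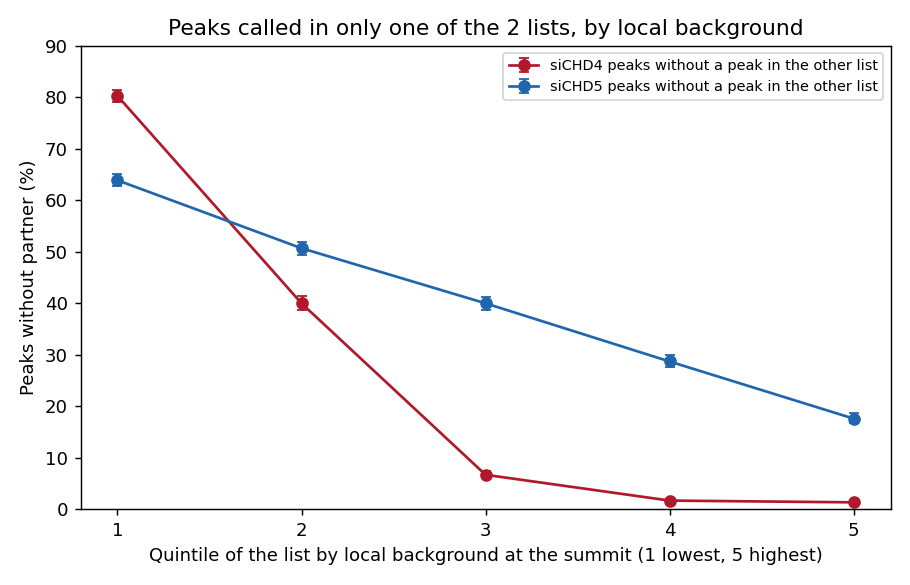
Share of siCHD4 peaks without a siCHD5 peak (red) and of siCHD5 peaks without a siCHD4 peak (blue), in percent, by quintile of each list ordered by local background at the summit; bars are exact 95% intervals for counting error. The siCHD4 share is 80.3% in the lowest quintile and 1.34% in the highest, and the siCHD5 share 63.9% and 17.6%.

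The 4 lists that took no part in the classification held the 2 kinds of peak unequally. Of the siCHD4-only peaks, 69.8% were called in siCHD3 (interval 68.7 to 70.9), 15.2% in siMBD2, 25.2% in siMBD3 and 41.8% in siNC (interval 40.6 to 43.0). Of the siCHD5-only peaks, 43.1% were called in siCHD3 (interval 42.2 to 44.0), 50.9% in siMBD2, 44.8% in siMBD3 and 79.9% in siNC (interval 79.2 to 80.6). The siCHD4-only peaks thus recurred most often after CHD3 knockdown and the siCHD5-only peaks most often in the control transfection. Among peaks with a −log10 q of 10 or more, siNC held 83.3% of the siCHD4-only peaks (1084 of 1302) and 91.7% of the siCHD5-only peaks (7598 of 8290), a much smaller gap. Shared peaks recurred widely, with 97.8% of them in siNC counted from either list and at least 79.9% in each remaining list. The siCHD3 and siNC lists are the longest of the 4, with 34319 and 36270 peaks. Their floors were 0.445 and 2.96 fragments, against 1.06 in siCHD4 and 1.95 in siCHD5. By this measure siNC was the deepest list and siCHD3 was shallower than siCHD4. The part of list length and depth in these shares was not tested.

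**Figure D3:**
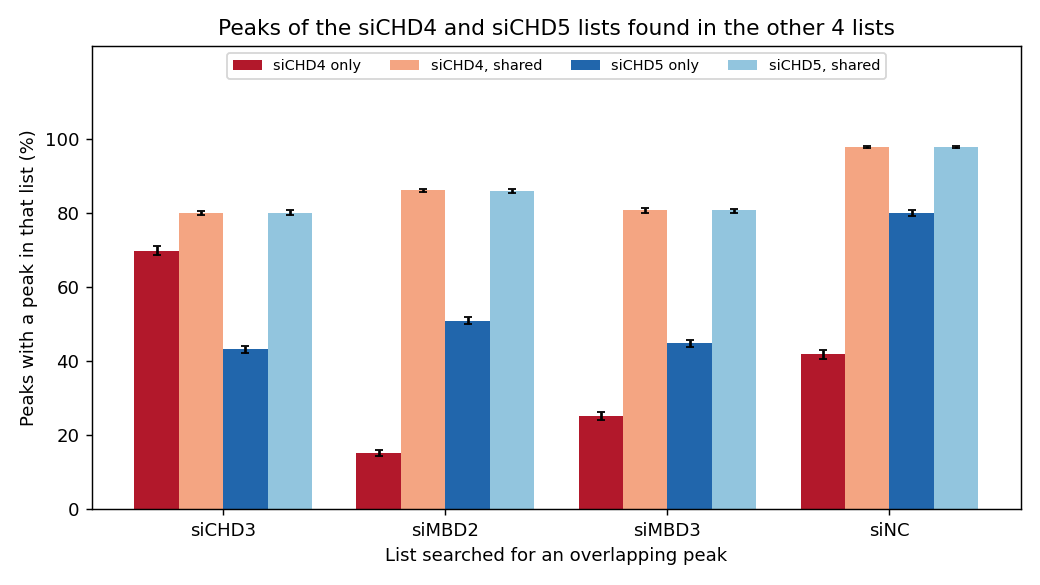
Share of peaks, in percent, with an overlapping peak in the siCHD3, siMBD2, siMBD3 or siNC list, for siCHD4-only and shared siCHD4 peaks (red and light orange) and siCHD5-only and shared siCHD5 peaks (dark and light blue); bars are exact 95% intervals for counting error. The siCHD4-only peaks stand at 69.8% in siCHD3 and 41.8% in siNC, and the siCHD5-only peaks at 43.1% and 79.9%.

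Taking the 4 lists together, 1855 siCHD4-only peaks (28.1%) were found in siCHD3 and in none of siMBD2, siMBD3 and siNC, the most frequent pattern, and 1432 (21.7%) were found in none of the 4. Another 439 (6.66%) were called in all 4, that is in every list of the series but siCHD5, and their median fold of 9.13 was above the 4.85 of all siCHD4-only peaks. For siCHD5-only peaks the most frequent pattern was presence in all 4 lists (2531 peaks, 20.0%, median fold 6.66), which are peaks called everywhere but in siCHD4. A further 1904 (15.1%) were in siNC alone of the 4 and 1581 (12.5%) in none. Strong peaks without a partner were seldom unique to their list. Of the 863 in the strongest decile of siCHD4, 848 were in siCHD3 (98.3%) and 754 in siNC (87.4%), and 6 were in none of the 4 lists. Of the 529 in the strongest decile of siCHD5, 337 were in siCHD3 (63.7%) and 522 in siNC (98.7%), and 2 were in none. Shared peaks of the same deciles recurred widely too. In siCHD4, 1571 of 1672 were in siCHD3 and 1662 in siNC, and in siCHD5, 2323 of 2616 were in siCHD3 and 2609 in siNC.

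The strongest siCHD4-only regions, counted with no siCHD5 peak within 1 kb, were also called in every other list. The first lay on chromosome 9 from 39631062 to 39631947, with a pileup of 54 over a background of 1.06 fragments in siCHD4 (fold 26.7), no peak in siCHD5, and folds of 34.6 in siCHD3, 7.76 in siMBD2, 11.1 in siMBD3 and 8.56 in siNC. The next lay on the same chromosome from 41776132 to 41777372, with a pileup of 52 in siCHD4 (fold 25.7) and folds of 36.0 in siCHD3, 8.50 in siMBD2, 11.5 in siMBD3 and 10.4 in siNC. The third, on chromosome 11 from 67450222 to 67450558, had a pileup of 50 in siCHD4 (fold 22.4) and folds of 39.2 in siCHD3, 8.03 in siMBD2, 12.5 in siMBD3 and 12.2 in siNC. A region on chromosome 19 from 22551420 to 22551788 had a fold of 20.4 in siCHD4 and 47.8 in siCHD3, and the nearest siCHD5 peak was 1165424 bp away. All 10 leading siCHD4-only regions had peaks in siCHD3, siMBD2, siMBD3 and siNC, and in each of the 10 the highest fold was that of siCHD3. The 5 shared siCHD4 peaks of highest fold also had their highest fold in siCHD3, from 119 to 207.

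Leading siCHD5-only regions, with no siCHD4 peak within 1 kb, were led by chromosome 11 from 82393208 to 82393574. It had a pileup of 73 over a background of 2.49 fragments in siCHD5 (fold 21.2), no peak in siCHD4 or siMBD3, and folds of 5.87 in siCHD3, 8.30 in siMBD2 and 6.17 in siNC. The second, on chromosome 2 from 4006918 to 4007255, had a pileup of 60 in siCHD5 (fold 20.6) and folds of 10.1 in siCHD3, 10.2 in siMBD2, 10.4 in siMBD3 and 10.0 in siNC. A region on chromosome 16 from 32773784 to 32774172 had a fold of 17.6 in siCHD5 and 14.5 in siNC, and the nearest siCHD4 peak was 597337 bp away. Of the 10 leading siCHD5-only regions, 8 had a peak in all 4 of the lists outside the comparison, and all 10 had one in siNC.

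One of the leading siCHD4-only regions lay near the leading siCHD5-only region of chromosome 11. Each had a closer peak of the other list, 5880 bp from the siCHD4-only region and 5378 bp from the siCHD5-only region. The siCHD4 peak from 82400568 to 82400918 had a pileup of 52 and a fold of 20.3 in siCHD4, no peak in siCHD5, and folds of 35.5 in siCHD3, 5.11 in siMBD2, 15.6 in siMBD3 and 11.0 in siNC. At this pair of sites each knockdown list thus held the peak that the other lacked. Genome-wide, 942 of the 6594 siCHD4-only peaks (14.3%) had a siCHD5-only peak within 10 kb, and 813 of the 12641 siCHD5-only peaks (6.43%) had a siCHD4-only peak within 10 kb. Any siCHD5 peak lay within 10 kb of 33.4% of siCHD4-only peaks, and any siCHD4 peak within 10 kb of 23.3% of siCHD5-only peaks. Whether such neighbours are more frequent than the spacing of peaks gives was not tested.

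Among shared peaks, summit pileup fell into 2 bands, which stood apart at high pileup and met at low pileup. Across the 18660 one-to-one pairs, 17647 (94.6%) had no more fragments in siCHD4 than in siCHD5, with a median of 31 in siCHD4 and 61 in siCHD5. The other 1013 pairs (5.43%) had more fragments in siCHD4 despite the lower depth of that list, with a median pileup of 52 in siCHD4 and 23 in siCHD5. These sites were wide, with a median width of 534 bp in siCHD4 and 306 bp in siCHD5, against 243 bp and 326 bp in the larger band. Their median fold was 15.5 in siCHD4 and 4.94 in siCHD5, and that of the larger band 5.02 and 7.28. Local background, which enters the fold, was also low in the smaller band, with medians of 2.55 fragments in siCHD4 and 3.68 in siCHD5, against 5.24 and 7.11 in the larger band. Across all pairs, Spearman's rho between siCHD4 and siCHD5 was 0.761 for pileup, 0.815 for local background and 0.206 for fold. These rho values describe 18660 sites whose lists share a cell line and an antibody.

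The smaller band was chosen by its siCHD4 and siCHD5 pileups, so those values describe the choice, while the other 4 lists are free of it. Divided by the floor of each list, the median pileup of the 1013 sites was 157 in the 939 that paired one to one with siCHD3, 37.5 in 757 with siMBD2, 53.5 in 859 with siMBD3 and 23.3 in 945 with siNC. The same measure was 49.0 in siCHD4 and 11.8 in siCHD5. For the larger band it was 29.2 in siCHD4, 31.2 in siCHD5, 47.2 in siCHD3, 40.6 in siMBD2, 53.5 in siMBD3 and 29.4 in siNC. Of the 4 lists that the choice did not use, siCHD3 thus had the highest value at the smaller band and siNC the lowest. The siNC value was also the lowest of these 4 at the larger band. By pileup over floor, the smaller band was higher than the larger band in siCHD3, equal in siMBD3 and lower in siMBD2 and siNC. The order by median fold, which local background enters, was another. It was higher at the smaller band in siCHD3 (33.6 against 6.85), siMBD3 (9.51 against 7.34) and siNC (7.47 against 5.79). In siMBD2 the median fold was lower at the smaller band (6.07 against 7.21). How efficient each immunoprecipitation was could not be read from the lists, and its part in these values was not tested. Whether a single library of a pooled list carries the smaller band was not tested either.

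**Figure D4:**
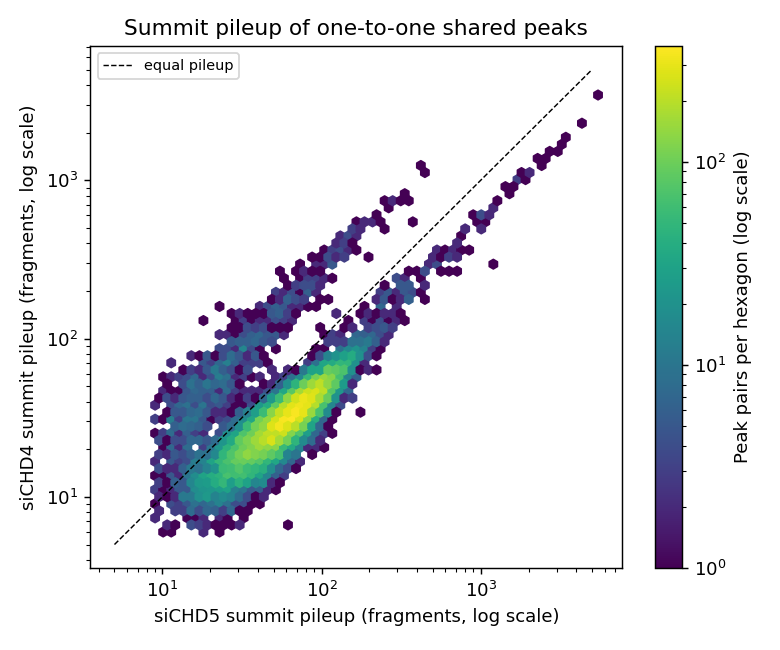
Summit pileup in siCHD4 (vertical) against siCHD5 (horizontal), in fragments on log scales, for the 18660 one-to-one shared peaks; colour gives the number of pairs in a hexagon on a log scale and the dashed line marks equal pileup. The larger band of 17647 pairs lies on or below the line, and a second band among the 1013 pairs above it stands apart from the first at high pileup.

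The shared peaks of highest fold in each list are given in every list as a description, since they were chosen by that value. Pileups are not scaled for depth, so those of different lists cannot be compared directly. The floors were 1.06 fragments in siCHD4, 1.95 in siCHD5, 0.445 in siCHD3, 0.640 in siMBD2, 0.374 in siMBD3 and 2.96 in siNC. The siCHD4 peak of highest fold, on chromosome 2 from 63911402 to 63911813, had a pileup of 626 in siCHD4 (fold 81.7) and 219 in siCHD5 (fold 17.3). Its pileup was 804 in siCHD3 (fold 167), 215 in siMBD2 (fold 16.6), 183 in siMBD3 (fold 34.6) and 576 in siNC (fold 13.7). The next, on chromosome 20 from 55176700 to 55177138, had a pileup of 417 in siCHD4 (fold 74.1) and 147 in siCHD5 (fold 22.5). Its pileup was 567 in siCHD3 (fold 207), 132 in siMBD2 (fold 17.0), 80 in siMBD3 (fold 22.7) and 386 in siNC (fold 20.7). Both belonged to the smaller band. The siCHD5 peak of highest fold, on chromosome 7 from 17022270 to 17022678, had a fold of 7.53 in siCHD4, 31.2 in siCHD5 and 11.1 in siNC. The next in siCHD5, on chromosome 1 from 224832181 to 224832735, had a pileup of 45 in siCHD4 (fold 4.86) and 121 in siCHD5 (fold 26.8). Its pileup was 29 in siCHD3 (fold 6.74), 46 in siMBD2 (fold 8.53), 25 in siMBD3 (fold 6.37) and 128 in siNC (fold 5.78). Folds of 20 or more were found for 399 siCHD4 peaks, 7 of them siCHD4-only, and for 44 siCHD5 peaks, 3 of them siCHD5-only.

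Wide peaks and peaks with several summits were more numerous in siCHD4 than in siCHD5, and most numerous in siCHD3. Of peaks over 1 kb, the siCHD3 list held 937 and the siNC list 164, and of peaks with several summits 1560 and 970. The siCHD4 list held 353 peaks over 1 kb, 128 of them siCHD4-only (36.3%, interval 31.2 to 41.5), and the siCHD5 list held 39, with 1 of them siCHD5-only. Of peaks with several summits, 443 of 1029 in siCHD4 (43.1%, interval 40.0 to 46.1) and 54 of 421 in siCHD5 (12.8%, interval 9.78 to 16.4) had no partner.

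The share of siCHD5 peaks missing from siCHD4 covered a wider range over the chromosomes than the reverse share did. It was highest on chromosomes 18 (275 of 553, 49.7%, interval 45.5 to 54), 13 (348 of 716, 48.6%) and 21 (134 of 291, 46%), and lowest on chromosomes X (524 of 1513, 34.6%, interval 32.2 to 37.1), 19 (35.8%) and 22 (36.0%). Among siCHD5 peaks above the median fold the share was 38.8% on chromosome 18, 22.8% on chromosome X and 27.7% on chromosome 19. The share of siCHD4 peaks missing from siCHD5 was highest on chromosomes 16 (259 of 821, 31.5%, interval 28.4 to 34.8) and 5 (30.5%) and lowest on chromosome 10 (23.0%, interval 20.6 to 25.5). Among siCHD4 peaks above the median fold the order was another, with 29.9% on chromosome 17, 28.5% on chromosome 22, 24.7% on chromosome 16 and the lowest share, 18.5%, on chromosome 9.

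Peak density showed opposite gradients in the 2 lists. With peaks ordered by the number of siNC peaks within 500 kb, siCHD4-only peaks made up 23.5% of the sparsest quintile of siCHD4 peaks (interval 22.3 to 24.7) and 27.3% of the densest (interval 26.1 to 28.6). The siCHD5-only share was 46.9% in the sparsest quintile of siCHD5 peaks (interval 45.7 to 48.2) and 34.1% in the densest (interval 32.9 to 35.3). Among peaks above the median fold of each list, the sparsest and densest quintiles gave 16.4% and 26.9% in siCHD4, and 34.3% and 21.4% in siCHD5.

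**Figure D5:**
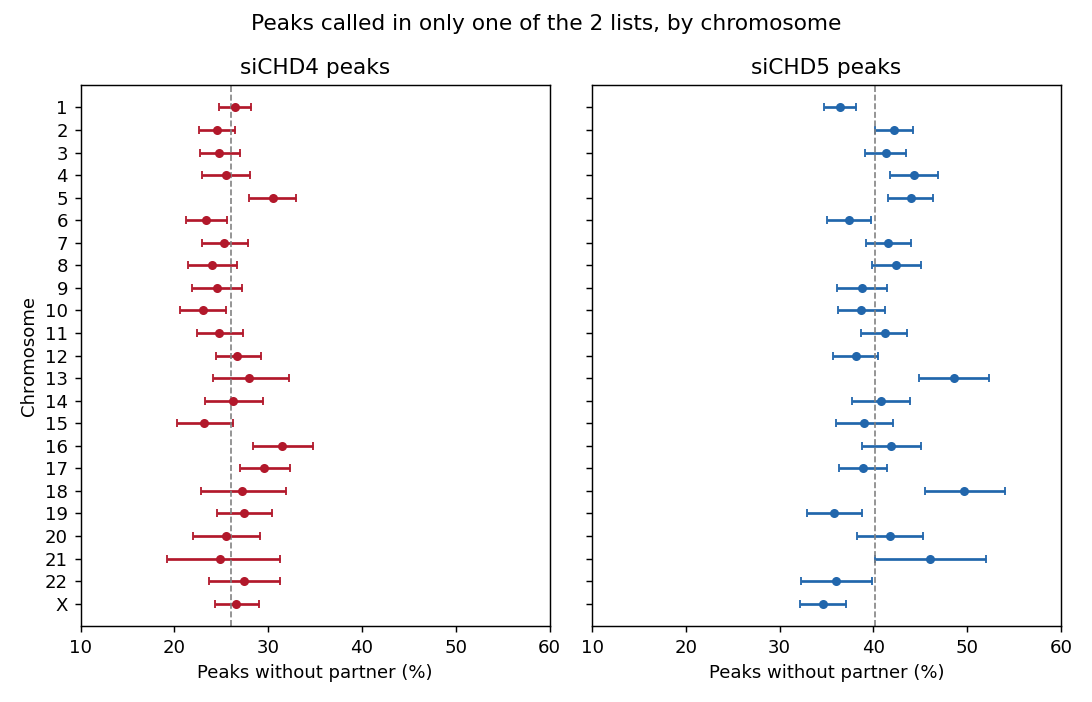
Share of siCHD4 peaks without a siCHD5 peak (left) and of siCHD5 peaks without a siCHD4 peak (right), in percent, by chromosome; points are shares, bars exact 95% intervals for counting error, and dashed lines the genome-wide shares of 26% and 40.2%. Chromosomes 18 and 13 stand highest for siCHD5 peaks, at 49.7% and 48.6%.

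Runs of consecutive siCHD5-only peaks reached a length of 13 peaks. The longest held 13 consecutive siCHD5 peaks over 316 kb of chromosome 14, from 22456128 to 22772024, of which 11 were called in siNC, 8 in siMBD2, 6 in siCHD3 and 4 in siMBD3. This stretch belongs to the T-cell receptor alpha locus, a gene cluster that is rearranged in T cells and not in kidney cells. This gene name was given from general knowledge after the position was seen. Inside the run siCHD4 had a single peak, from 22580087 to 22580359 with a pileup of 21, which overlapped none of the 13. The siCHD5 pileups in the run were 22 to 53 fragments and the folds 3.74 to 10.2, so the run was made of peaks of moderate strength. The next longest runs of siCHD5-only peaks held 12 peaks on chromosome 18 from 24201495 to 25189064 and 11 on chromosome 4 from 169435409 to 170208420.

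The longest runs of siCHD4-only peaks lay in other places. They held 14 peaks over 105 kb of chromosome 1 from 148212175 to 148317443, 9 peaks on chromosome 7 from 56147311 to 57997656, 9 on chromosome 5 from 68473593 to 69004864 and 9 over 29.7 kb of chromosome 1 from 144162452 to 144192108. In the first, 7 siCHD5 peaks lay between the siCHD4 peaks without overlapping them, and 2 of the 14 were called in siCHD3 and 1 in siNC. Single siCHD4-only peaks, outside any run, made up 42.6% of all siCHD4-only peaks, and single siCHD5-only peaks 34.4% of theirs. These shares also depend on how many peaks lacked a partner in each list, 26% in siCHD4 and 40.2% in siCHD5. Whether runs are longer than a random order of peaks gives was not tested.

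At 12 loci chosen for their known CTCF sites, gene clusters or targeted genes, siCHD4-only peaks were 103 of 336 siCHD4 peaks (30.7%, against 26% over the genome) and siCHD5-only peaks 131 of 367 siCHD5 peaks (35.7%, against 40.2%). Loci were taken as windows with bounds in whole Mb of hg19, placed from general knowledge, and no gene annotation of that build was used here. The window of the clustered protocadherins, cell-surface genes whose promoters are chosen through CTCF, had 8 siCHD4-only of 21 siCHD4 peaks and 18 siCHD5-only of 33 siCHD5 peaks. Of those 18 peaks, 16 were called in siNC, against 79.9% of siCHD5-only peaks over the genome. A wide siCHD4 peak there, from 140698315 to 140700224 on chromosome 5 with a pileup of 50 and a fold of 13.4, covered ground that siCHD5 split into 3 peaks of folds 2.85 to 5.77.

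The window of H19 and IGF2, an imprinted pair whose choice of enhancer depends on CTCF, had 3 siCHD4-only of 14 siCHD4 peaks and 8 siCHD5-only of 19 siCHD5 peaks. The siCHD5-only peaks included a close pair, on chromosome 11 from 2023345 to 2023537 (pileup 15, fold 5.42) and from 2024112 to 2024330 (pileup 12, fold 4.40), of which the second and not the first was called in siNC. These are low pileups for the siCHD5 list, whose median was 46. A shared peak from 2356505 to 2357018 had a pileup of 92 in siCHD4 (fold 20.1) and 43 in siCHD5 (fold 5.42), and so lay in the smaller band.

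In the windows of the HOX clusters, which hold the transcription factor genes of body-axis patterning, the counts were small. The siCHD4-only peaks numbered 6 of 15 at HOXA, 11 of 36 at HOXB, 5 of 32 at HOXC and 5 of 18 at HOXD. The siCHD5-only peaks numbered 5 of 14 at HOXA, 12 of 37 at HOXB, 12 of 39 at HOXC and 7 of 20 at HOXD. The HOXD window held one of the 5 strongest shared peaks of siCHD4, from 177065673 to 177066112 on chromosome 2. Its pileup, not scaled for depth, was 306 in siCHD4 (fold 60.6), 95 in siCHD5 (fold 14.6) and 348 in siNC (fold 20.1). The HOXA window held a shared peak of the same kind, from 27497788 to 27498497 on chromosome 7, with a pileup of 127 in siCHD4 (fold 35.7) and 33 in siCHD5 (fold 7.26).

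The windows of the targeted genes held small counts, to be read beside genome-wide shares of 26% in siCHD4 and 40.2% in siCHD5. Over the genome, siNC held 41.8% of siCHD4-only peaks and 79.9% of siCHD5-only peaks. The CHD4 window had 14 siCHD4-only of 34 siCHD4 peaks and 11 siCHD5-only of 31 siCHD5 peaks. Of the 14, 6 were called in siNC, and of the 11, 10 were. The CHD5 window had 1 siCHD4-only of 13 siCHD4 peaks and 11 siCHD5-only of 23 siCHD5 peaks, and 10 of those 11 were called in siNC. In the beta-globin window siCHD4 had 2 siCHD4-only of 4 peaks and siCHD5 had 7 siCHD5-only of 9 peaks, all 7 of them in siNC. In the alpha-globin window the counts were 5 of 12 siCHD4 peaks and 6 of 13 siCHD5 peaks, and in the histone gene cluster 8 of 36 and 8 of 36. In the major histocompatibility complex, the locus of antigen-presenting genes, they were 35 of 101 and 26 of 93. Of these, siNC held 2 of 5 and 3 of 6 at alpha-globin and 4 of 8 and 6 of 8 at the histone cluster. At the major histocompatibility complex it held 8 of 35 and 14 of 26. Such counts are small, and each peak of a window shares its libraries with the rest.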

How the data were processed

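The files used were 6 peak lists deposited in the MACS2 narrow-peak layout, 1 per condition, each named as replicates 1 to 3 called together, treatment against control. The submitters' processing notes name MACS2 2.1.2, Bowtie2 2.3.4, deepTools 3.5.0, bedtools 2.25.0, SAMtools 1.9 and FastQC 0.11.7, and the build hg19. Settings and read filters are not given in the sources used here. Deposited columns were taken as the authors' fold enrichment (a ratio over local background), −log10 p-value, −log10 q-value, display score and summit offset. No result uses the deposited score. In the deposited lists the lowest −log10 q was 1.30 in siCHD4 and 1.31 in siCHD5.

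Lines sharing chromosome, start and end were counted once, keeping the summit of highest fold. Overlaps were computed with pandas 2.3.3, numpy 2.4.6 and scipy 1.17.1 (Python 3.11.15) and gave the same counts as bedtools 2.31.1. The authors' fold was read as (pileup + 1)/(background + 1) and their p as an upper Poisson tail, and both equations were solved together for pileup and background. In each list 100% of peaks gave a whole pileup with p matched to 0.01%. Depth was read from the smallest background, since read totals were not used. Overlap and pileup code was tested on simulated data.

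Named regions were the 10 strongest of each list with no peak of the other knockdown within 1 kb, the 5 strongest shared peaks of each list and the 5 longest runs of each list; the leading ones are printed. The comparison, locus windows and rules were chosen with earlier results of these data known. Quintiles by local background, the 2 pileup bands and the wide-peak counts were chosen after seeing the data. Sequences and gene annotation of hg19 were not used here.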

Additional observations from a re-analysis of the deposited data

How the results depend on the processing

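No paired analysis was possible because each condition had 1 list pooled over its replicates; for the same reason no replicate could be left out. Under each alternative run for both lists, other than lists of equal length, a higher share of siCHD5 peaks than of siCHD4 peaks lacked a partner. The siCHD5 list was also the longer one in each of these settings. Peaks paired nearly one to one, so where both lists were treated alike this order follows largely from their lengths. Given as siCHD4-only share and siCHD5-only share, requiring −log10 q of 5 or more in each list gave 16.6% and 43.4%, 10 or more in each list 15.4% and 58.6%, and 10 or more in the counted list alone 10.5% and 32.6%. Reciprocal overlap of 50% gave 29.9% and 43.5%, summits within 100 bp 27.4% and 41.5%, any peak within 1 kb 24.7% and 39.2%, and lists of equal length 32.5% and 32.6%, which the equal lengths force to be nearly equal. Counting every line gave 26.7% in siCHD4, leaving out peaks over 1 kb 41.0% in siCHD5, and thinning siCHD5 summits to the siCHD4 coverage 38.8% in siCHD5. The siCHD4 summits could not be thinned to the deeper siCHD5 list. Keeping peaks with a background of at least 2 times the floor, chosen after seeing the data, gave 7.65% and 32.7%. All contigs left both shares within their intervals, at 26.2% and 39.9%. The share of siCHD4-only peaks called in siNC was 46.5% with any peak within 1 kb, 39.2% with reciprocal overlap of 50% and 83.3% at −log10 q of at least 10 in siCHD4. The share of siCHD5-only peaks called in siNC was 78.1% with reciprocal overlap and 91.7% at −log10 q of at least 10 in siCHD5. The cause of these shifts was not tested.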
